A study of Mus musculus with 7 samples.

Results

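The receptors of the epidermal growth factor (EGF) family, their ligands and a receptor inhibitor were examined in skin papillomas with and without induced *Nanog*. The 10 genes were taken by symbol and not by value from the 23122 gene symbols analysed, although earlier results of these data were known. Each had a single entry in every file. They comprise 3 receptors (*Egfr*, *Erbb2* and *Erbb3*), 6 ligands (*Hbegf*, *Areg*, *Ereg*, *Tgfa*, *Epgn* and *Btc*) and the inhibitor *Errfi1*. PolyA+ RNA of 7 papillomas from different C57Bl/6 mice was sequenced, 4 from control mice (CTR) and 3 from transgenic mice (TG). All mice carried the tetO-Nanog transgene, in which doxycycline switches on a *Nanog* cDNA when a transactivator is present. Only TG mice carried that transactivator, K5-rtTA, driven by the bovine keratin 5 promoter in the basal layer of stratified epithelia. CTR and TG mice alike were 8 to 10 weeks old at the start, drank doxycycline (2 mg/ml) throughout, and received the mutagen DMBA and then the tumor promoter TPA on the skin. Tumors were taken when observation ended, or earlier where a humane endpoint was met, and each library holds bulk RNA of a papilloma.

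The EGF receptor (EGFR, or ERBB1) is a transmembrane tyrosine kinase that pairs with itself or with ERBB2 and ERBB3 after a ligand binds. ERBB2 has no known ligand of its own, and ERBB3 has a weak kinase, so they signal through their partners. The ligands are made as membrane-bound precursors and are released by metalloproteases, ADAM17 above all. In the epidermis this system drives keratinocyte proliferation, migration and wound repair, and phorbol esters such as TPA are known to promote ligand release. *Errfi1* encodes MIG6, which binds the kinase domain of active receptors and blocks it.

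*Nanog*, the induced gene, lay between 36.9 and 66.9 FPKM in the TG papillomas and between 2.7 and 12.7 FPKM in the CTR papillomas. FPKM scale fragment counts by transcript length and by library size, so levels of different genes can be set side by side. The interval widths in the files implied between 10074859 and 15710562 reads on genes per library, CTR 3 and TG 1 being the deepest, and between 94 and 3637 reads per entry for the 10 genes. TG 3 stood apart. Its summed level of 8 skeletal muscle markers was 670 FPKM, against 2.16 to 4.87 in the other TG and 1.5 to 3.05 in CTR papillomas, with all 8 highest in TG 3. It also held the highest value of 7 of 7 fibroblast (698 FPKM summed, against 74.5 to 130 in CTR papillomas), 6 of 6 hair follicle, 4 of 4 sebaceous, 5 of 6 adipocyte, 4 of 5 endothelial and 4 of 7 leukocyte markers. Their sums in TG 3 were 15.8 FPKM for hair follicle, 44.9 for sebaceous gland, 25.8 for endothelial cell and 45.2 for leukocyte genes, against highest CTR sums of 0.465, 8.59, 12.4 and 26.4. The adipocyte sum was carried by *Fabp4* and did not stand out, while *Adipoq*, *Plin1*, *Lep* and *Cidec* were listed at 0 in every CTR papilloma. The 12 keratinocyte markers, among them *Krt5*, *Krt14* and *Trp63*, were present in every papilloma, so the labelled skin tumor held keratinocyte RNA in each library. They summed to between 17766 and 20946 FPKM in CTR and between 14681 and 27891 FPKM in TG papillomas. The sum hides differences between markers. *Krt1* had 1517, 3309 and 133 FPKM in TG 1 to 3, against 187 to 807 FPKM in CTR papillomas. *Krt10* had 3150, 3133 and 181 FPKM in TG 1 to 3, against 917 to 1440 FPKM in CTR papillomas. Both count in the keratinocyte scale used below. The part of these other cell types in the values below was not tested. In such bulk tissue, fewer cells of a type and less RNA per cell cannot be told apart.

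All 10 genes had a higher mean in TG than in CTR papillomas, where 60.0% of the 12299 tested genes did, and none passed the test across all genes. *Epgn* had the largest difference, followed by *Ereg*, *Areg* and *Egfr*, whereas *Erbb2* and *Errfi1* differed least. The test was limma on log2(FPKM + 0.5), run on genes whose mean over the 7 papillomas reached 0.5 FPKM, with Benjamini-Hochberg adjustment. At an adjusted p under 0.05 it called 0 of the 10 genes, and 0% of all tested genes. At an unadjusted p under 0.05, 4 of the 10 were higher in TG papillomas (*Egfr*, *Ereg*, *Epgn* and *Btc*), against 4.86% of the tested genes, and 0 were lower, against 1.96%. In 2 of the 10, *Egfr* and *Ereg*, every TG papilloma lay above every CTR papilloma, against 4.93% of the tested genes. The log2 differences of the 10 had a median of 0.51, against 0.06 for all tested genes.

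CTR 2 had the lowest value of 9 of the 10 genes, all except *Btc*, and of 30.2% of the tested genes. TG 3 had the highest value of 4 of the 10, and of 41.1% of the tested genes. Without CTR 2, 2 of the 10 genes had an unadjusted p under 0.05 (*Ereg* and *Epgn*), where 3.49% of all tested genes were higher at that p, and 7 of 10 had a higher TG mean, where 52.5% did. Without both CTR 2 and TG 3, a comparison chosen after seeing the data, 0 had an unadjusted p under 0.05 and 6 of 10 had a higher TG mean, against 5.5% and 40.2% of all tested genes. With every gene expressed relative to the 12 keratinocyte markers, which moved the median of all genes to -0.19, 8 of 10 had a higher TG mean, 1 (*Epgn*) had an unadjusted p under 0.05, and none of the 10 lay higher in every TG papilloma. The shares of all tested genes on that scale were 25.1%, 0.959% and 1.2%.

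**Figure D1:**
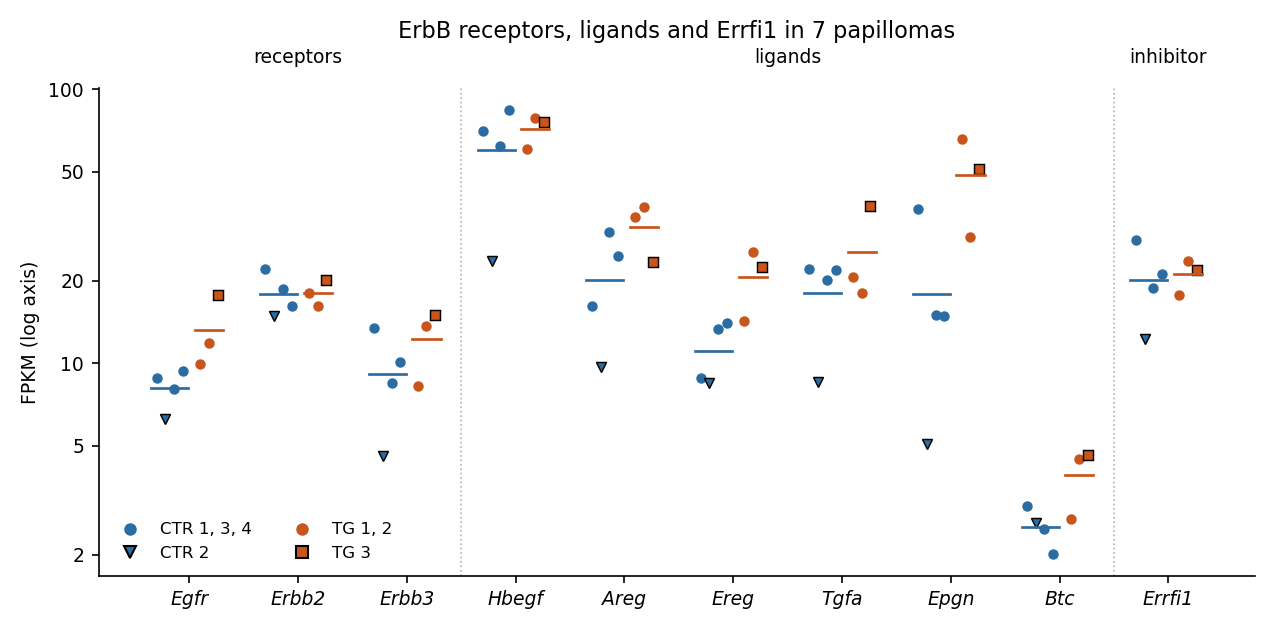
FPKM of the 10 genes on a log axis in each papilloma, with CTR in blue and TG in orange, horizontal bars at the group means, a triangle for CTR 2 and a square for TG 3. *Egfr* and *Ereg* show no overlap between the groups, and CTR 2 is the lowest point for 9 of the 10 genes.

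Among the receptors, *Egfr* was higher in every TG papilloma, *Erbb2* was level between the groups, and *Erbb3* overlapped. *Egfr* (ENSMUSG00000020122, chromosome 11, 16752203 to 16913907, plus strand, GRCm38) had 8.86, 6.23, 8.03 and 9.4 FPKM in CTR 1 to 4 and 9.91, 11.8 and 17.8 FPKM in TG 1 to 3. The groups did not overlap, but TG 1 and CTR 4 lay close together, and their 95% confidence intervals from Cufflinks (9.33 to 10.5 and 8.69 to 10.1 FPKM) did overlap. The CTR mean was 8.13 ± 1.38 FPKM (SD, n = 4) and the TG mean 13.2 ± 4.14 FPKM (SD, n = 3), a ratio of 1.62. The log2 difference was 0.64 (95% interval 0.12 to 1.16, adjusted p = 0.687 from limma). Over the 35 ways to assign the papillomas to 4 and 3, the 2-sided exact permutation test gave p = 0.0286, the smallest it can give. The difference was 0.41 without TG 3, 0.52 without CTR 2 and 0.29 without both, and its unadjusted p was not under 0.05 in any of these fits.

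The 300 bases from 250 before to 50 after the RefSeq start of *Egfr* are shown because *Egfr* was the receptor that separated the groups (GRCm38.p6, chr11:16751953-16752252, plus strand). Capitals here and below mark matches, on either strand, to 4 motifs. The site of AP-1, a factor that phorbol esters activate, was searched as TGANTCA, which 7.81% of 32851 RefSeq promoter windows of this length hold. The cAMP response element was searched as TGACGTCA (1.79% of windows). The GC box was searched as GGGCGG (35.7% of windows). The TATA box was searched as TATAAA (13.6% of windows). No capitals of different motifs overlap in the windows shown.
Egfr: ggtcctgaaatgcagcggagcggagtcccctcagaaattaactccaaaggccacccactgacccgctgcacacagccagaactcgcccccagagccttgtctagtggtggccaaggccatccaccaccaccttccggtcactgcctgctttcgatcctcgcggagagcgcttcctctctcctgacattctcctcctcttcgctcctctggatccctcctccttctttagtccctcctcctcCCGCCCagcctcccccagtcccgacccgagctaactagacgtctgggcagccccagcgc
The window of *Egfr* holds a single GC box, as CCGCCC, 9 bases upstream of the start, and no match to the other 3 motifs. Its GC content is 62.3%, and the median of all windows is 52.7%. Matches are a description of the letters only.

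*Erbb2* (chromosome 11, 98412484 to 98437716, plus strand), the preferred partner of the other receptors, ranged from 14.8 FPKM in CTR 2 to 22.1 in CTR 1, with 18.1, 16.2 and 20.1 FPKM in TG 1 to 3. The means were 17.9 ± 3.21 FPKM (SD, n = 4) in CTR and 18.1 ± 1.95 FPKM (SD, n = 3) in TG papillomas. The TG values thus lay inside the CTR range. Its log2 difference of 0.02 had a 95% interval of -0.38 to 0.43 (adjusted p = 0.993 from limma), and turned to -0.04 with upper-quartile scaling and to -0.23 relative to keratinocyte markers. *Erbb3* (chromosome 10, 128569368 to 128589501, minus strand), the receptor that couples most directly to PI3-kinase, had 13.4, 4.57, 8.46 and 10.1 FPKM in CTR 1 to 4 and 8.24, 13.7 and 15 FPKM in TG 1 to 3. TG 1 lay below 3 of the 4 CTR papillomas. The log2 difference was 0.46 (95% interval -0.32 to 1.24, adjusted p = 0.852 from limma), and 0.18 without CTR 2.

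The ratio of *Egfr* to *Erbb2* within a library does not depend on scaling between libraries. This ratio was looked at after the values were known. It was 0.4, 0.421, 0.431 and 0.581 in CTR 1 to 4 and 0.547, 0.73 and 0.888 in TG 1 to 3. TG 2 and TG 3 exceeded every CTR papilloma, and TG 1 lay below CTR 4. The summed FPKM of the 3 receptors was 35.2 ± 7.65 (SD, n = 4) in CTR and 43.6 ± 8.5 (SD, n = 3) in TG papillomas.

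**Figure D2:**
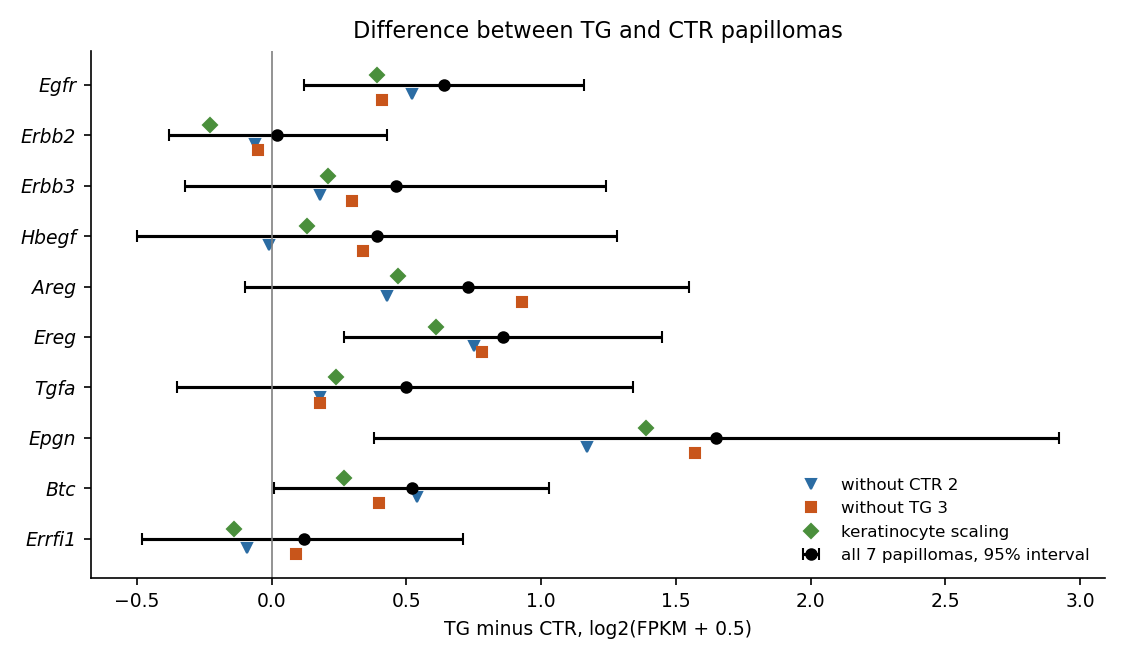
TG minus CTR difference in log2(FPKM + 0.5) for each gene. Black circles with bars give limma's estimate and 95% interval over all 7 papillomas, and the colored symbols the estimate without CTR 2, without TG 3 and relative to the 12 keratinocyte markers. The intervals of *Egfr*, *Ereg*, *Epgn* and *Btc* lie above 0 before adjustment for all genes, and those of the other 6 genes include 0.

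Of the ligands, *Epgn*, *Ereg*, *Areg* and *Btc* lie next to each other on chromosome 5, within 375 kb. All had higher means in TG papillomas, by ratios between 1.55 and 2.73. *Epgn* (91027517 to 91035212, plus strand) encodes epigen, a low-affinity ligand of EGFR. It had 36.6, 5.07, 15 and 14.8 FPKM in CTR 1 to 4 and 66, 28.8 and 51.3 FPKM in TG 1 to 3. TG 1 and TG 3 exceeded all CTR papillomas, and CTR 1 exceeded TG 2, so the groups overlapped in 1 of 12 pairs. The CTR mean of 17.9 ± 13.3 FPKM (SD, n = 4) compared with 48.7 ± 18.8 FPKM (SD, n = 3) for TG. Its log2 difference of 1.65 had a 95% interval of 0.38 to 2.92 (adjusted p = 0.687 from limma) and p = 0.0857 in the 2-sided exact permutation test. The difference was 1.17 without CTR 2, its lowest papilloma, and between 1.07 and 2.09 over all alternatives. Without TG 1, its highest papilloma, it was 1.39 and the unadjusted p was no longer under 0.05.

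*Ereg* (91074617 to 91093649, plus strand) encodes epiregulin, which binds EGFR and ERBB4. It had 8.83, 8.45, 13.3 and 14 FPKM in CTR 1 to 4 and 14.2, 25.4 and 22.5 FPKM in TG 1 to 3. No CTR papilloma reached a TG papilloma, although TG 1 (interval 13.4 to 14.9) and CTR 4 (13.1 to 14.9) were apart by less than their counting error. Its means were 11.1 ± 2.9 FPKM (SD, n = 4) for CTR and 20.7 ± 5.84 FPKM (SD, n = 3) for TG. The log2 difference was 0.86 (95% interval 0.27 to 1.45, adjusted p = 0.631 from limma, and p = 0.0286 in the 2-sided exact permutation test). Among the 10 genes it had the smallest p, at rank 189 of 12299. *Ereg* kept an unadjusted p under 0.05 without each single papilloma, and lost it without CTR 2 and TG 3 together (0.67) and relative to keratinocyte markers (0.61).

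*Areg* (91139615 to 91148432, plus strand) encodes amphiregulin, an autocrine growth factor of keratinocytes. It had 16.1, 9.65, 30.1 and 24.6 FPKM in CTR 1 to 4 and 34.1, 37.1 and 23.3 FPKM in TG 1 to 3. TG 1 and TG 2 lay above every CTR papilloma, and TG 3 fell among them. The log2 difference was 0.73 (95% interval -0.10 to 1.55, adjusted p = 0.796 from limma, and p = 0.171 in the 2-sided exact permutation test). Its difference was 0.43 without CTR 2 and 0.93 without TG 3. *Btc* (91357261 to 91402994, minus strand) encodes betacellulin, a ligand of EGFR and ERBB4, and was the least abundant member. Its levels were 3.01, 2.62, 2.49 and 2.02 FPKM in CTR 1 to 4 and 2.69, 4.46 and 4.61 FPKM in TG 1 to 3, with only CTR 1 above TG 1 among the 12 pairs. The log2 difference was 0.52 (95% interval 0.01 to 1.03, adjusted p = 0.726 from limma, and p = 0.0571 in the 2-sided exact permutation test). Its unadjusted p was under 0.05 in 8 of 20 alternatives and not in the other 12, among them upper-quartile scaling (0.46), keratinocyte scaling (0.27), and the fits without CTR 2 (0.54), without CTR 3 (0.52), without CTR 4 (0.44), without TG 2 (0.42) and without TG 3 (0.40).

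The windows around the starts of *Epgn* and *Areg* are shown because these were the most abundant ligands of the chromosome 5 group (GRCm38.p6, chr5:91027267-91027566 and chr5:91139349-91139648, both plus strand). No window of *Ereg* was at hand.
Epgn: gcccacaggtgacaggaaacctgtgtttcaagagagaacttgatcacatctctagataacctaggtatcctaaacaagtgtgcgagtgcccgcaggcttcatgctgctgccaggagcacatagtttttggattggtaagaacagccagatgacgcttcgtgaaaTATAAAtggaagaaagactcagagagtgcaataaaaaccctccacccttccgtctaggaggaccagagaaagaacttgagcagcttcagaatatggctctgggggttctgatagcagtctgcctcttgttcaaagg
Areg: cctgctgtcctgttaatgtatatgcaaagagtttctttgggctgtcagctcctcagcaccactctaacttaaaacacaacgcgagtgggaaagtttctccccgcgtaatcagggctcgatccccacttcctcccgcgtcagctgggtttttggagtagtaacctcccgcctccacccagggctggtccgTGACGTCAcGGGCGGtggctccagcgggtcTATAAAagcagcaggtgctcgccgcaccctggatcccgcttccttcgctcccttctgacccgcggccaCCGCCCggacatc
The *Areg* window holds a cAMP response element 61 bases, and a TATA box 31 bases, upstream of the start, with GC boxes at 52 bases upstream and 37 bases downstream. The *Epgn* window holds a TATA box sequence 86 bases upstream and no other match, and its GC content is 47.3%, against 59.3% for *Areg*. Of the windows examined, none of the 7 members with an entry held TGANTCA.

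**Figure D3:**
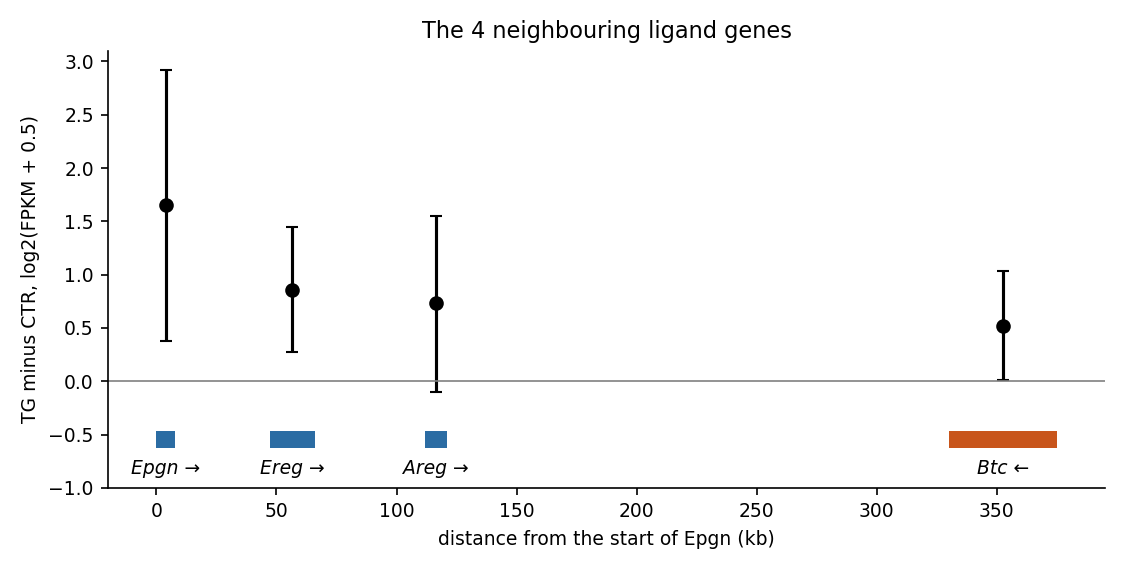
The 4 ligand genes of chromosome 5 along the distance from the start of *Epgn* in kb, with colored bars for the gene spans and arrows for the strand (blue plus, orange minus). Black points give the TG minus CTR difference in log2(FPKM + 0.5) with limma's 95% interval. The estimates were 1.65, 0.86, 0.73 and 0.52 in the order of the genes, and their intervals overlap.

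The likeness of these genes from papilloma to papilloma varied by pair. Over the 7 papillomas, Pearson's r of the log2 values was 0.74 for *Ereg* and *Areg*, 0.49 for *Ereg* and *Epgn*, 0.60 for *Areg* and *Epgn*, 0.68 for *Ereg* and *Btc*, 0.48 for *Epgn* and *Btc*, and 0.22 for *Areg* and *Btc*. These are descriptions, since the values of a library share its scaling. The gaps between the genes are 39.4 kb from *Epgn* to *Ereg*, 46 kb from *Ereg* to *Areg* and 209 kb from *Areg* to *Btc*.

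The other ligands, *Hbegf* and *Tgfa*, showed no separation. *Hbegf* encodes heparin-binding EGF-like growth factor, an early wound-response ligand, and lies on chromosome 18, 36504927 to 36515805, minus strand. It was the most abundant of the 10 genes, with 70.4, 23.6, 62 and 83.6 FPKM in CTR 1 to 4 and 60.5, 78.2 and 75.7 FPKM in TG 1 to 3. Apart from CTR 2 the groups covered the same range. The log2 difference was 0.39 (95% interval -0.50 to 1.28, adjusted p = 0.908 from limma), and it was -0.01 without CTR 2. *Tgfa* (chromosome 6, 86195251 to 86275449, plus strand) encodes transforming growth factor alpha, a high-affinity EGFR ligand made by keratinocytes themselves. It had 22.1, 8.52, 20.1 and 21.8 FPKM in CTR 1 to 4 and 20.7, 18.1 and 37.5 FPKM in TG 1 to 3. TG 3 was high and CTR 2 low, while the other 5 papillomas lay between 18.1 and 22.1 FPKM. Its log2 difference was 0.50 (95% interval -0.35 to 1.34, adjusted p = 0.852 from limma), 0.18 without CTR 2, 0.18 without TG 3 and -0.13 without both.

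The summed level of the 6 ligands was 157, 57.9, 143 and 161 FPKM in CTR 1 to 4 and 198, 192 and 215 FPKM in TG 1 to 3. Every TG sum exceeded every CTR sum in FPKM. Singly, 4.93% of the tested genes did so, but a share of single genes gives no background for a sum of 6. Relative to the keratinocyte markers, none of the 6 ligands lay higher in every TG papilloma. Whether the sums stay apart on that scale was not tested. The mean sums were 130 ± 48.5 FPKM (SD, n = 4) in CTR and 202 ± 11.8 FPKM (SD, n = 3) in TG papillomas. As a sum over chosen genes it carries no p. The log2 difference of 0.75 was 0.39 without CTR 2 and 0.70 without TG 3. *Hbegf* made up 45.2% ± 4.82 (SD, n = 4) of the ligand sum in CTR and 35.5% ± 5.1 (SD, n = 3) in TG papillomas. *Epgn* made up 12.9% ± 6.95 (SD, n = 4) in CTR and 24.1% ± 9.16 (SD, n = 3) in TG papillomas. Its TG shares were 33.3%, 15% and 23.9%, and CTR 1 had 23.3%, so that the groups overlapped. The shares of *Areg* (15.8% in each group) and *Ereg* (9.55% and 10.3%) were close.

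**Figure D4:**
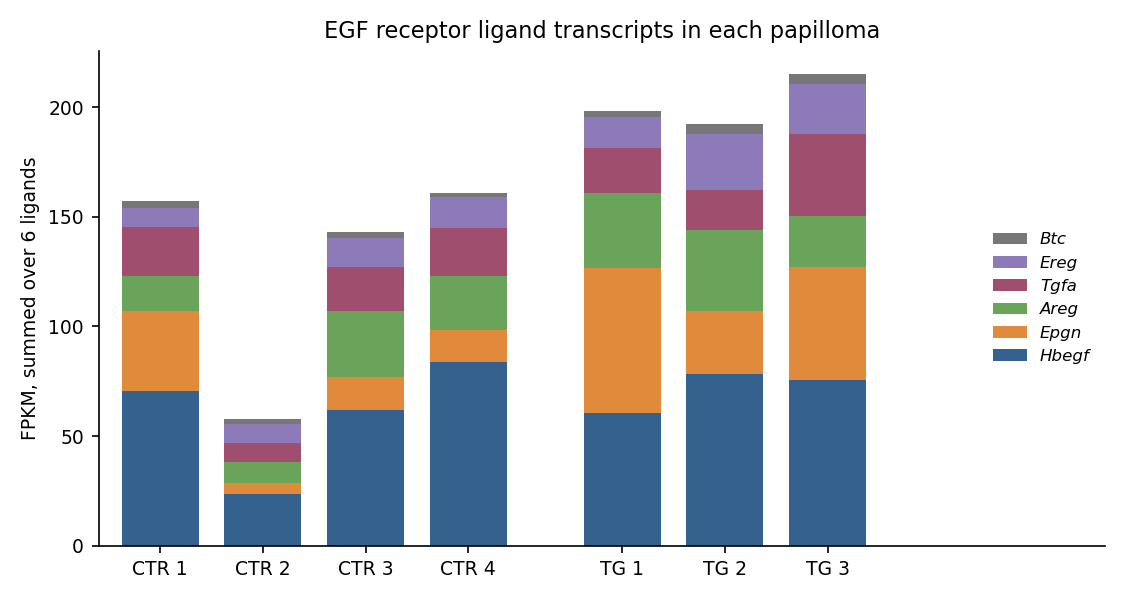
Stacked FPKM of the 6 ligands in each papilloma, 1 bar per papilloma starting at 0. The TG bars reach 192 to 215 FPKM and the CTR bars 57.9 to 161 FPKM, with CTR 2 the shortest and *Hbegf* the largest segment in 6 of the 7 papillomas.

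In order of level over all 7 papillomas, *Hbegf* (64.9 ± 20.1 FPKM, SD, n = 7) stood above *Epgn* (31.1 ± 21.9), *Areg* (25 ± 9.78), *Tgfa* (21.3 ± 8.54), *Errfi1* (20.5 ± 4.96), *Erbb2* (18 ± 2.53), *Ereg* (15.2 ± 6.47), *Erbb3* (10.5 ± 3.72), *Egfr* (10.3 ± 3.74) and *Btc* (3.13 ± 1.00). The gap between neighbours in this order, taken within each papilloma on the log2 scale, exceeded its SD from *Hbegf* to *Epgn* (1.34 ± 0.93) and from *Egfr* to *Btc* (1.55 ± 0.31), and about equalled it from *Ereg* to *Erbb3* (0.50 ± 0.50). The other 6 neighbouring pairs did not differ beyond their spread. The receptors *Erbb3* and *Egfr* were level, with *Erbb3* higher in 4 of 7 papillomas. The order of the group means differed between CTR and TG, but single papillomas departed from it. *Epgn* was second in TG papillomas (mean 48.7 FPKM), but its CTR mean of 17.9 FPKM lay below those of *Areg*, *Errfi1* and *Tgfa*. *Ereg* lay above *Erbb2*, and *Egfr* above *Erbb3*, in TG means, with the reverse order in CTR means. In TG 2, however, *Epgn* (28.8 FPKM) lay below *Areg* (37.1 FPKM), and in CTR 1 it lay above (36.6 and 16.1 FPKM). In TG 1 *Ereg* (14.2 FPKM) lay below *Erbb2* (18.1 FPKM). The ratio of *Egfr* to *Erbb3* was 0.863 in TG 2 and 1.36 in CTR 2.

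*Errfi1* (chromosome 4, 150855091 to 150868880, plus strand), whose product restrains all receptors of the family, had 28.1, 12.3, 18.8 and 21.1 FPKM in CTR 1 to 4 and 17.7, 23.6 and 21.9 FPKM in TG 1 to 3. Every TG value lay inside the CTR range. Its log2 difference was 0.12 (95% interval -0.48 to 0.71, adjusted p = 0.968 from limma), -0.09 without CTR 2 and -0.14 relative to keratinocyte markers. RefSeq gives 2 starts for *Errfi1*, and the window of the start nearer to the locus in the files is shown because it shares a motif with *Areg* that 1.79% of promoters hold (GRCm38.p6, chr4:150854820-150855119, plus strand). The window of the other start (GC content 42%) holds 0 matches to the 4 motifs.
Errfi1: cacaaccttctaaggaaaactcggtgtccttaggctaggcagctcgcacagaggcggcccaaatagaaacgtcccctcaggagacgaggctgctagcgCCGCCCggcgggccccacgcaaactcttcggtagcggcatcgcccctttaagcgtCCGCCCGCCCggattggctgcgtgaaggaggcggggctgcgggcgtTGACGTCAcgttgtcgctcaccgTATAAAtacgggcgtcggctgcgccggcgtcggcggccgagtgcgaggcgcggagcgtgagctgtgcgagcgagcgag
The cAMP response element lies 51 bases and the TATA box 28 bases upstream of the start of *Errfi1*, in the same order as in *Areg*. Further upstream are 3 GC boxes, 2 of them overlapping. Over the 7 papillomas the r between *Errfi1* and *Areg* was 0.43. The highest r among all 45 pairs of the 10 genes was that of *Errfi1* and *Erbb3* (0.93). In 44 of 45 pairs r was above 0, with a median of 0.63, and the lowest, -0.03, was for *Erbb2* and *Ereg*. No such share was taken over all pairs of tested genes, and CTR 2 was lowest for 9 of the 10. By rank (Spearman's rho) some pairs fell, such as *Hbegf* and *Epgn* (r 0.68, rho 0.00) and *Areg* and *Tgfa* (0.54 and -0.18). Others rose, such as *Egfr* and *Ereg* (0.82 and 0.93).

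The tested genes most like each member over the 7 papillomas were found by Pearson's r of log2(FPKM + 0.5), with uncharacterised gene models skipped. Their r lay between 0.94 and 0.99. Being picked as the highest of 12299 genes over only 7 papillomas favors a high r, so these genes are listed as a description only. For the receptors they were *Rnpep*, *Tmem167b* and *Tsc1* (*Egfr*), *Chchd3*, *Serbp1* and *Ftsj1* (*Erbb2*), and *Prkx* and *Rbm33* (*Erbb3*). For the ligands they were *Furin*, *Atxn7l3b* and *Dusp7* (*Hbegf*), *Mtap7d1*, *Golga2* and *Pigc* (*Areg*), *Map3k14*, *Gch1* and *Ttc38* (*Ereg*), *Ptpn11*, *Amotl1* and *Dnajc14* (*Tgfa*), *Mfsd2a*, *Ddr1* and *Med22* (*Epgn*), and *Hand1*, *Mks1* and *Tbc1d9* (*Btc*). For *Errfi1* they were *Wdr26*, *Taf4b* and *Hyal1*.

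The remaining genes of the family and its pathway were taken from 5 lists, and 0 of their 64 tested genes passed at an adjusted p under 0.05. The remaining receptor, *Erbb4*, was listed at 0 in all 7 papillomas. *Egf* itself lay between 0.0818 and 0.343 FPKM, and *Nrg3* was listed at 0 in 6 papillomas. Of the neuregulins, ligands of ERBB3 and ERBB4, *Nrg1* and *Nrg4* differed little in mean. *Nrg1* had 7.14 ± 1.69 FPKM (SD, n = 4) in CTR and 7.64 ± 3.03 FPKM (SD, n = 3) in TG papillomas. *Nrg2* had 3.09 ± 1.04 and 4.08 ± 1.97 FPKM, and *Nrg4* 1.57 ± 0.328 and 1.61 ± 0.397 FPKM. None of the tested neuregulins had an unadjusted p under 0.05.

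Of the 11 genes of ligand shedding and delivery, 9 had a higher mean in TG papillomas, and 2 were higher at an unadjusted p under 0.05, with a median log2 difference of 0.36. Of all tested genes 60.0% and 4.86% did so. TG 3 held the highest value of 7 of the 11, all of them genes of the ADAM proteases or *Timp3*, and of 41.1% of all tested genes. *Frmd8*, which encodes a binding partner that stabilizes the iRhom-ADAM17 complex, had 8.74 to 11.2 FPKM in CTR and 13.1 to 15.9 FPKM in TG papillomas, without overlap. Its log2 difference was 0.51 (SE 0.15, adjusted p = 0.625 from limma). *Adam8* encodes a metalloprotease prominent in leukocytes. It had 4.92, 6.33, 7.41 and 13.3 FPKM in CTR 1 to 4 and 11, 11.9 and 33.2 FPKM in TG 1 to 3. The TG value was higher in 10 of 12 pairs, and TG 3 was the highest papilloma (log2 difference 1.08, adjusted p = 0.702 from limma). The summed leukocyte markers were also highest in TG 3, and their part was not tested. *Adam9* differed by 0.51, and the genes with lower means, *Rhbdf1* and *Adam15*, by -0.15 and -0.06.

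Among 12 negative regulators, 1 was higher at an unadjusted p under 0.05, a share near the 4.86% of all tested genes, and the median difference was 0.21. TG 3 was highest for 5 of the 12. *Sh3kbp1*, an adaptor of receptor endocytosis with the ubiquitin ligase CBL, had 12.6 to 18.6 FPKM in CTR and 19.1 to 25.4 FPKM in TG papillomas (log2 difference 0.46, SE 0.18, adjusted p = 0.705 from limma). *Cbl* and the phosphatase gene *Ptpn1* differed by 0.57 and 0.32, and *Socs5*, *Lrig3* and *Socs4* by -0.31, -0.09 and -0.05. Of 23 adaptors and transducers, 1 was higher at an unadjusted p under 0.05, again near the 4.86% of all tested genes, and TG 3 was highest for 14. The 1 gene was *Stat3*, a transcription factor activated by EGFR and by cytokine receptors, with 19.7 to 24 FPKM in CTR and 28.2 to 34.4 FPKM in TG papillomas (log2 difference 0.59, SE 0.15, adjusted p = 0.564 from limma). *Plcg1* and *Pik3r1* followed with 0.34 and 0.44, and *Map2k1*, *Map2k2* and *Mapk3*, kinases of the ERK cascade, differed by -0.11, -0.09 and -0.07. The median of this list was 0.14.

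Genes known to respond to ERK signaling showed no shared direction. Of 15 tested, 9 had a higher and 6 a lower mean in TG papillomas, 0 had an unadjusted p under 0.05 (4.86% of all tested genes were higher at that p), and their median difference of 0.06 equalled that of all genes. The phosphatase gene *Dusp5* differed by 0.71, *Dusp6* by 0.26 and *Etv5* by 0.21. *Myc* differed by -0.18, *Spry2* by -0.14 and the immediate early gene *Egr1* by -0.31. For *Dusp6*, TG 1 and TG 2 (26.7 and 46.6 FPKM) lay inside the CTR range of 23.5 to 48.1 FPKM. Only TG 3 (80.6 FPKM) lay above it. TG 3 was highest for 7 of the 15 genes, and for 41.1% of all tested genes.

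**Figure D5:**
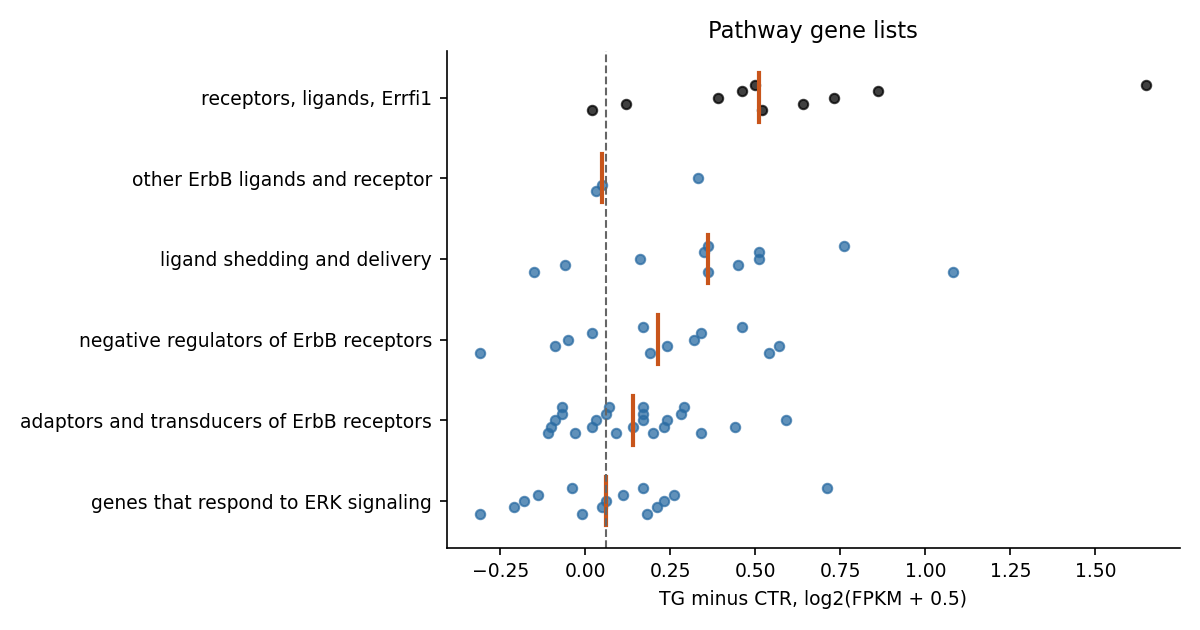
TG minus CTR difference in log2(FPKM + 0.5) of every tested gene in the 10-gene group (black) and in the 5 pathway lists (blue), with orange bars at list medians and a dashed line at the median of all tested genes (0.06). The 10-gene group has a median of 0.51, shedding and delivery 0.36, and ERK-responsive genes 0.06.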

How the data were processed

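Conditions and replicate numbers came from the sample titles. Per the labels and the paper's methods, the authors mapped single 40-base reads with TopHat 2.0.4 (SAMtools 0.1.16, Bowtie 0.12.7) against GRCm38/mm10. Each library went through Cufflinks 1.3.0 separately, and the deposited tables hold FPKM with 95% confidence bounds. The kit was stranded, and the strand setting of the counting is not given in the sources used here. Files were joined by symbol and locus, 240 symbols with several loci were summed, and 162 symbols with a failed estimate were left out. Locus starts were shifted by 1 to be 1-based. Reads per entry were inferred from the interval width and cover counting error only.

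R 4.3.3 with limma 3.58.1 fitted log2(FPKM + 0.5) with a variance trend for genes averaging 0.5 FPKM or more. The same kind of fit was also run on simulated data. The pseudocount shrinks the differences of low genes. Cuffdiff, which needs alignments, was not run. P-values were 2-sided. Python 3.11.15 (pandas 2.3.3, matplotlib 3.10.9) did the rest. Strands came from GENCODE M21 and promoter windows from RefSeq (GRCm38.p6), which held 7 of the 10 genes, and *Ereg* and *Erbb3* were among the others. *Hras* was not analysed here.

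The members, lists and tests were chosen with earlier results of these data known. Named genes were *Nanog*, the 10 members, all genes of the list of other family members, the 3 genes with the smallest p in each direction of every other list, and the 3 genes most like each member. Uncharacterised gene models were skipped, and 1 gene is not reported here. The alternatives numbered 18 planned and 2 added after seeing the data.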

Additional observations from a re-analysis of the deposited data

Results flagged for a closer look

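Both flags concern the CTR group of 4 and mark a papilloma whose gap to the next value is large for the group's range (Dixon's test at the 95% level). They arose among 13 groups of values tested, where chance flags about 1 in 20. *Tgfa* was 8.52 FPKM in CTR 2, while the other CTR papillomas had 20.1 to 22.1 FPKM. *Nanog* was 12.7 FPKM in CTR 3, a library of greater depth, while the other CTR papillomas had 2.7 to 3.34 FPKM.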

How the results depend on the processing

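Under 20 alternatives, the TG minus CTR differences of *Egfr*, *Erbb3*, *Areg*, *Ereg*, *Epgn* and *Btc* stayed above 0, and no member passed an adjusted p of 0.05 in any of them. The lowest adjusted p was 0.0735, for *Ereg*. *Erbb2* turned to -0.04 with upper-quartile scaling, -0.03 with quantile normalization, -0.23 with keratinocyte scaling, -0.08 with quality weights and -0.13 without CTR 2 and TG 3, and *Errfi1* to -0.14 with keratinocyte scaling and -0.12 without CTR 2 and TG 3. Without CTR 2 and TG 3, *Hbegf* was -0.05 and *Tgfa* -0.13. When single papillomas were left out, *Erbb2* ranged from -0.06 to 0.13, *Hbegf* from -0.01 to 0.59 and *Errfi1* from -0.09 to 0.29. In those fits 0 to 9 genes of all tested were higher and 0 to 8 lower at an adjusted p under 0.05, the most without TG 3. Quality weights gave 49 higher and 36 lower, the fit without CTR 2 and TG 3 gave 3 and 2, and the papillomas of lower depth gave 1 and 0. At an unadjusted p under 0.05 the split of 598 higher and 241 lower became 403 and 551 with quantile normalization, 515 and 418 with upper-quartile scaling, 118 and 462 with keratinocyte scaling, and 1161 and 1248 with quality weights. The causes were not tested. In the fit blocked on replicate number, 0 genes passed, *Erbb2* was -0.02, *Egfr* 0.71 and *Ereg* 0.98, and CTR 4 had no partner. Deviations of same-numbered papillomas correlated at -0.186, 0.043 and -0.146, so the numbers were not taken to pair the papillomas. With 4 and 3 papillomas the exact test cannot go below 0.0286.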
